A study of Arabidopsis thaliana with 8 samples.

Results

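The 10 genes described here decide when Arabidopsis thaliana changes from making leaves to making flowers: FT (AT1G65480), TSF (AT4G20370), TFL1 (AT5G03840), SOC1 (AT2G45660), AGL24 (AT4G24540), FLC (AT5G10140), SVP (AT2G22540), CO (AT5G15840), SPL3 (AT2G33810) and SPL4 (AT1G53160). They were listed by locus name out of 25643 loci on the array, with earlier results of these data known, and each had 1 probe. Of the 10 genes, 9 were well above background on at least 1 array and entered the tests, with 22381 genes in all.

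The samples were 8 diploid strains (ExTQ002, ExTQ003, ExTQ005, ExTQ013, ExTQ015, ExTQ016, ExTQ018, ExTQ019), each measured once on a 1-colour Agilent array. All are progeny of Ex-TAQing treated plants, in which a gene for the restriction enzyme MseI was introduced and the enzyme activated by 3 h at 33 °C; such an enzyme cuts chromosomes at its recognition sites. The strains thus share the MseI gene in their ancestry and the heat treatment of a parent, and no untreated strain was used here. The progeny grew on medium with sucrose for 4 weeks in 16 h of light and 8 h of dark, and the tissue is labelled as leaves; the labels give the same age for all and do not say how many plants went into a sample. With 1 array per strain, a strain can be set only against the 7 others, and p-values measure only the spread between these samples.

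In Arabidopsis, long days stabilise CO protein in the leaf phloem, where CO switches on FT; FT protein then travels to the shoot tip as the main florigen. There FT works with the bZIP factor FD, raises SOC1 and AP1, and is opposed by its relative TFL1, which keeps the shoot tip growing without turning into a flower. The MADS-box repressors FLC and SVP hold FT and SOC1 down, while the SPL genes, released from the microRNA miR156 as plants age, act in parallel on SOC1, LFY and AP1.

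The arrays had 61.3% to 67.7% of probes well above background, and repeat spots of the same probe on an array had a median SD of 0.055 to 0.082 on the log2 scale. Levels below are log2 intensities after subtracting the 75th percentile of the same array, so a step of 1 is a doubling, and levels of different genes cannot be compared because each probe has its own response. All 4 leaf markers (chlorophyll binding proteins, the small Rubisco subunit and a carbonic anhydrase) were well above background in every strain, with a summed level from 6.74 in ExTQ019 to 7.38 in ExTQ003. The samples did not hold leaf transcripts alone. All 6 flower organ markers (AP3, PI, AG, SEP1, SEP2, SEP3) were above background in 7 strains, with summed levels of 1.53 in ExTQ013, 1.80 in ExTQ015 and 3.02 to 4.30 in the other 5; in ExTQ002 the sum was -0.57 and AP3 was not well above background. The 4 shoot meristem markers summed to -1.05 in ExTQ002 and to 1.56 to 2.78 in the others. Of the 4 root markers 1 to 3 were above background, and their sum ran from -0.28 in ExTQ019 to 3.30 in ExTQ002. Nearly all of that sum was PYK10, at -0.29 and 3.30 in these strains. EXP7 was above background on 0 arrays and PRP3 on 3, and COBL9, above it on 7, was highest in ExTQ018.

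**Figure D1:**
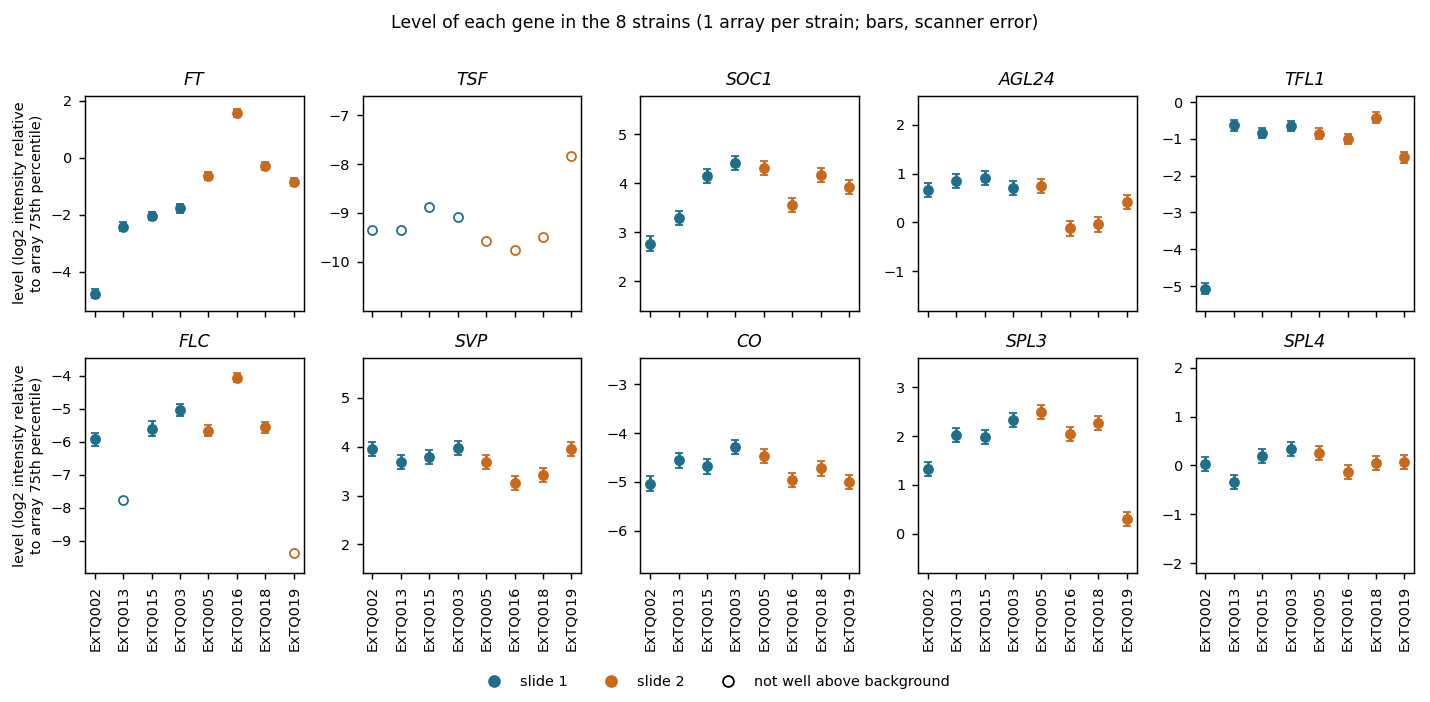
Level of each of the 10 genes in the 8 strains, as log2 intensity relative to the 75th percentile of the array (1 array per strain; bars, scanner error; colours, the 2 slides; open circles, not well above background). FT spans the widest range, TFL1 is low in ExTQ002 and SPL3 in ExTQ019, SVP, CO and SPL4 stay within less than 1 unit, and TSF is below background throughout.

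Of the 8 genes among the 10 that were above background on every array, FT varied most over the strains. It stood at -4.77 in ExTQ002, -2.41 in ExTQ013, -2.04 in ExTQ015, -1.78 in ExTQ003, -0.86 in ExTQ019, -0.63 in ExTQ005, -0.28 in ExTQ018 and 1.58 in ExTQ016. Its SD over the strains was 1.85 (n = 8), larger than that of 98.6% of the 18920 genes above background on all arrays, whose median SD was 0.30. Each of the 7 steps between neighbours in that order exceeded the combined scanner error of both arrays, which was 0.20 to 0.21. Here and below, that error comes from each array alone. It does not measure the spread between plants or between repeat arrays of a strain.

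Neither end of the FT range passed the test. In ExTQ002 FT was -3.85 ± 1.3 (SE) below the mean of the 7 others, with an adjusted p of 0.359 by limma. In ExTQ016 the difference was 3.41 ± 1.46 (SE), with an adjusted p of 0.999. The 7 others themselves had an SD of 1.35 around -0.92 in the first case. The sum of flower markers was lowest in ExTQ002, as FT was, and SUC2, which marks the phloem companion cells that make FT, was 2.61 in ExTQ002 and 3.82 in ExTQ016, its lowest and highest levels. Their part in the FT values was not tested; in such samples fewer cells of a type and less RNA per cell cannot be told apart.

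The order of FT also followed the slides. All 4 strains on slide 2 (ExTQ005, ExTQ016, ExTQ018, ExTQ019) lay at -0.86 or higher, and all 4 on slide 1 (ExTQ002, ExTQ013, ExTQ015, ExTQ003) at -1.78 or lower. The means were -0.05 on slide 2 and -2.75 on slide 1. Their difference was 2.70 ± 0.80 (SE), with an adjusted p of 0.440 in a limma fit across all genes. That fit called 0% of genes, with 2259 of 22381 at an unadjusted p under 0.05. Each slide held other strains and was scanned apart, so slide and strain cannot be told apart. With the slide means taken out, the SD of FT was 1.25 and that of TFL1 1.57, so FT then no longer varied most. Within slide 2, ExTQ016 remained 2.17 above the 3 others, and within slide 1, ExTQ002 was -2.69 from the 3 others, with neither past the test.

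TSF, the close relative of FT with a similar florigen role, was not well above background on any array. Its readings lay between -9.76 and -7.84 and have no order.

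TFL1, which keeps inflorescence meristems from becoming flowers, was low in a single strain. Its level was -5.07 in ExTQ002, against -1.50 in ExTQ019, -1.0 in ExTQ016, -0.86 in ExTQ005, -0.84 in ExTQ015, -0.65 in ExTQ003, -0.63 in ExTQ013 and -0.43 in ExTQ018. The probe was above background on every array. Between ExTQ016 and ExTQ013 no step exceeded the scanner error. The difference of ExTQ002 from the others' mean of -0.85 ± 0.34 (SD, n = 7) was -4.22 ± 0.35 (SE), or 18.7-fold lower, with an adjusted p of 0.0222.

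Of the 9 tested genes TFL1 alone was called in ExTQ002, a call being a log2 difference of 1 or more in size with an adjusted p below 0.05. Calls made up 0.0849% of all genes there, and lower calls 0.0536%. The direction held in all 16 alternative settings, but the call held in 7. It was lost with normexp background correction (-3.34, adjusted p = 0.187), with the deposited series values (-3.01, adjusted p = 0.0861), with slide as a block (-4.36, adjusted p = 0.0643), within slide 1 (adjusted p = 0.304), and without ExTQ015, ExTQ003, ExTQ005, ExTQ016 or ExTQ018. The meristem and flower marker sums, too, were lowest in ExTQ002, and their part in the TFL1 value was not tested.

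SOC1, the MADS-box gene on which the photoperiod, age and gibberellin routes converge, ranged less. Its level was 2.77 in ExTQ002, 3.29 in ExTQ013, 3.55 in ExTQ016, 3.91 in ExTQ019, 4.15 in ExTQ015, 4.17 in ExTQ018, 4.31 in ExTQ005 and 4.42 in ExTQ003. The first 4 steps exceeded the scanner error and the 3 steps among the top 4 strains did not. In ExTQ002 SOC1 was -1.20 ± 0.42 (SE) from the others' mean of 3.97 ± 0.42 (SD, n = 7), with an adjusted p of 0.383 by limma. The SD of 0.57 over the 8 strains was larger than that of 77.1% of genes.

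AGL24, the partner of SOC1 that promotes flowering in the shoot tip, had 2 low strains. It stood at -0.12 in ExTQ016 and -0.04 in ExTQ018, then at 0.42 in ExTQ019, 0.67 in ExTQ002, 0.70 in ExTQ003, 0.75 in ExTQ005, 0.85 in ExTQ013 and 0.91 in ExTQ015. No step between neighbours among the upper 5 exceeded the scanner error, nor did the step from ExTQ016 to ExTQ018. AGL24 was thus low in the strain with the highest FT. The slide 2 mean was 0.25 and the slide 1 mean 0.78. Their difference was -0.53 ± 0.21 (SE), with an adjusted p of 0.479 by limma, and ExTQ005 on slide 2 overlapped with slide 1.

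Of the repressors, FLC was faint. FLC, the repressor that cold winters silence, was well above background on 6 arrays, at -4.05 in ExTQ016, -5.04 in ExTQ003, -5.56 in ExTQ018, -5.59 in ExTQ015, -5.66 in ExTQ005 and -5.92 in ExTQ002. In ExTQ013 and ExTQ019 it was not well above background, so its readings there (-7.77 and -9.38) have no order. The steps from ExTQ018 to ExTQ003 and on to ExTQ016 exceeded the scanner error, and the 3 steps between ExTQ002 and ExTQ018 did not. Setting FLC in ExTQ019 to that array's lowest level of a probe above background put it 5.29-fold below the mean of the others. That level is not a detection limit for FLC, and the mean includes the reading below background in ExTQ013. By limma FLC was not called in ExTQ019. It passed with slide as a block (adjusted p = 0.0394), against the other strains of slide 2 (0.0453) and without ExTQ013 (0.0143), and did not in the other 12 settings. Its measured difference was -3.72 here, -1.15 with normexp and -0.48 with the deposited series values.

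SVP, the repressor that acts in a complex with FLC, was among the steadier genes, with an SD of 0.26, larger than that of 42.3% of genes. It stood at 3.26 in ExTQ016, 3.41 in ExTQ018, 3.68 in both ExTQ005 and ExTQ013, 3.79 in ExTQ015, 3.94 in ExTQ019, 3.96 in ExTQ002 and 3.97 in ExTQ003. The single step beyond the scanner error lay between ExTQ018 and ExTQ005, with ExTQ016 and ExTQ018 below the other 6 on these arrays. No strain passed the test.

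CO, the activator of FT in long days, spanned 0.75 units. Its levels were -5.04 in ExTQ002, -5.0 in ExTQ019, -4.96 in ExTQ016, -4.72 in ExTQ018, -4.68 in ExTQ015, -4.56 in ExTQ013, -4.47 in ExTQ005 and -4.29 in ExTQ003. Of its 7 steps 1 exceeded the scanner error, that from ExTQ016 to ExTQ018. The strains with the highest and lowest FT were thus both in the lowest 3 for CO. CO was dim, and background treatment changed its spread: the SD was 0.27 here, 0.75 with normexp and 0.18 with the series values.

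SPL3, a small SPL factor that acts on SOC1, LFY and AP1, was low in 1 strain. It stood at 0.30 in ExTQ019, against 1.33 in ExTQ002, 1.98 in ExTQ015, 2.02 in ExTQ013, 2.04 in ExTQ016, 2.27 in ExTQ018, 2.34 in ExTQ003 and 2.49 in ExTQ005. The mean of the 7 others was 2.07 ± 0.38 (SD, n = 7). The difference of -1.76 ± 0.38 (SE) was 3.39-fold lower, with an adjusted p of 0.0206 by limma. Of the 9 tested genes SPL3 alone was called in ExTQ019, where 6.3% of all genes were called lower and 4.4% higher. The call held in 15 of 16 settings and was lost when p-values were adjusted over all strains together (adjusted p = 0.121).

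SPL4, a relative of SPL3 with a like role, had no strain that stood apart. Its level was -0.33 in ExTQ013, -0.13 in ExTQ016, 0.04 in ExTQ002, 0.06 in ExTQ018, 0.06 in ExTQ019, 0.19 in ExTQ015, 0.25 in ExTQ005 and 0.33 in ExTQ003. No step between neighbours exceeded the scanner error, and the SD of 0.21 was larger than that of 31.3% of genes. In ExTQ019 SPL4 lay 0.01 above the mean of the others, beside -1.76 for SPL3.

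**Figure D2:**
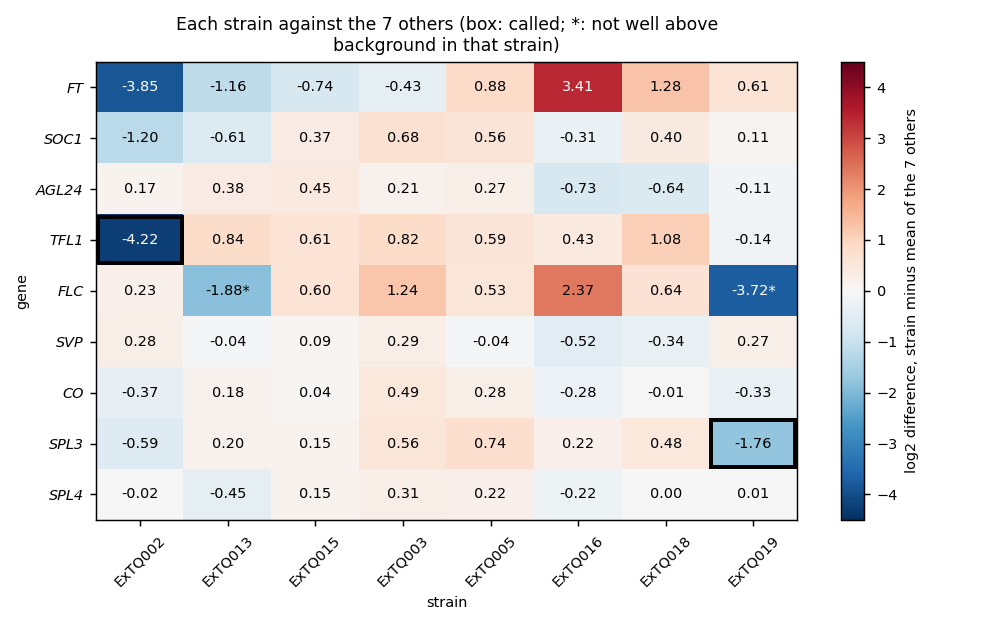
Log2 difference of each strain from the mean of the 7 others for the 9 tested genes (red, higher in the strain; blue, lower; boxes, called; asterisks, not well above background in that strain). The 2 boxes are TFL1 in ExTQ002 (-4.22) and SPL3 in ExTQ019 (-1.76); FT has differences nearly as large that did not pass.

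Over the 9 genes and 8 strains, 2 calls were made, TFL1 in ExTQ002 and SPL3 in ExTQ019. In ExTQ002 3 of the 9 genes (FT, SOC1 and TFL1) had an unadjusted p under 0.05, against 9.57% of all genes, and the median difference of the 9 was -0.37, beside -0.04 for all genes. In ExTQ019 2 of 9 did, against 32.2% of all genes. ExTQ016 had 0 calls and 1 gene at that unadjusted level, with 1.39% of all genes called, 1.38% in the higher direction. No gene of the 9 reached it in ExTQ013, ExTQ015, ExTQ003, ExTQ005 or ExTQ018, where limma called 0%, 0.0536% (0.0491% higher), 0%, 0.00447% and 0% of all genes. The median difference of the 9 was 0.49 in ExTQ003 and 0.53 in ExTQ005, beside 0.04 and 0.05 for all genes, with 8 of the 9 above 0 in each. In ExTQ015 8 of the 9 were also above 0 (median 0.15), and in ExTQ018 5 were (median 0.40). The share of all genes above 0 was not counted, and each comparison holds ExTQ002, lowest in FT, TFL1 and SOC1, among the others. With normexp, FLC (2.70) and CO (2.06) were also called in ExTQ003, where that correction shifted the median of all genes by 0.28 and called 5391 of them.

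As a set, the genes beside TFL1 and SPL3 did not share their shifts. The neighbours are the 10 measured genes on each side in locus order, and their shift is the median of their differences from the median of the other strains. Around TFL1 in ExTQ002 it was -0.11, with 12 of 20 below 0 and 0 called, while TFL1 itself was at -4.23. These 20 ran from -1.93 to 0.58, and some close to TFL1 were lower in ExTQ002 too. HB51, EMB175, MLS and AT5G03870 were at -1.14, -1.83, -1.93 and -1.86. The nearest on each side, AT5G03830 and AT5G03850, were at -0.21 and -0.16. Around SPL3 in ExTQ019 the neighbours' median was 0.06, with 9 of 20 below 0 and 2 called, while SPL3 was at -1.73. Those neighbours ran from -1.55 to 2.04. For FLC in ExTQ019 the neighbours' median was -0.05 and FLC's own difference -3.78. For FT it was 0.07 in ExTQ002 and -0.06 in ExTQ016, beside -3.91 and 3.36 for FT.

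**Figure D3:**
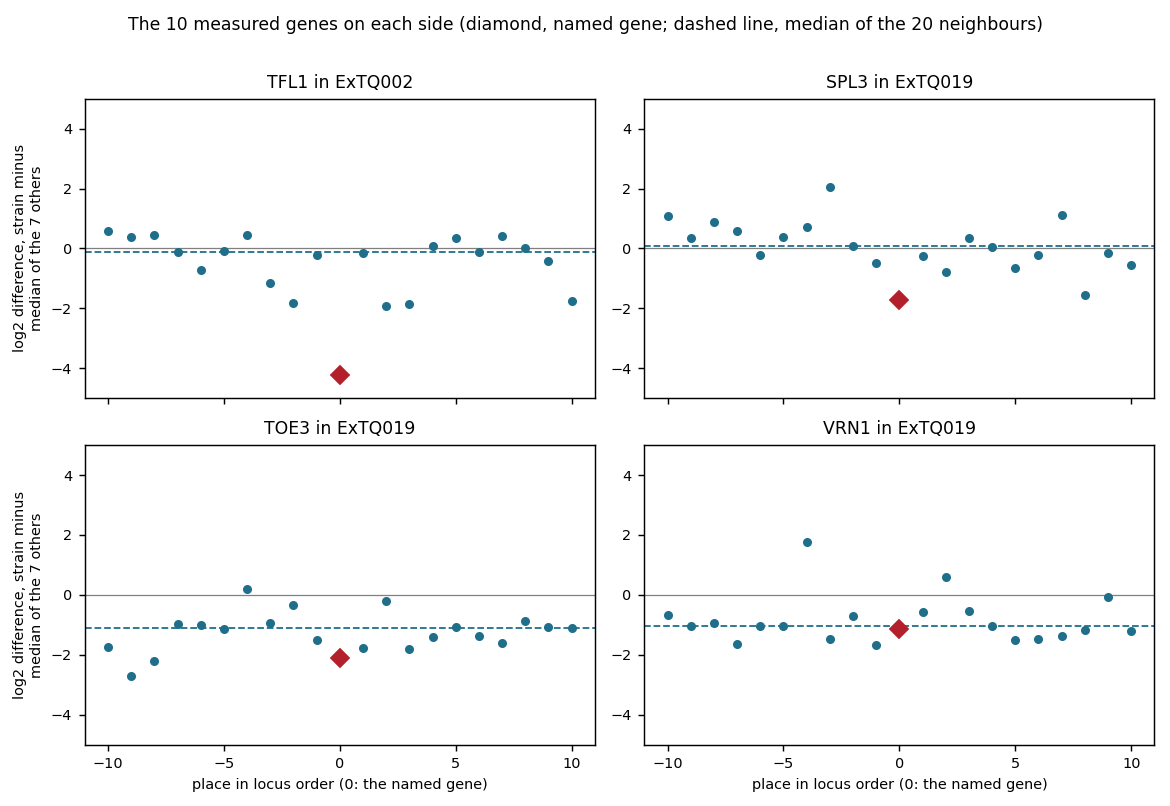
Log2 difference from the median of the 7 other strains for a gene (diamond) and the 10 measured genes on each side in locus order (dots; dashed line, their median). The neighbours of TFL1 in ExTQ002 and of SPL3 in ExTQ019 centre near 0, whereas those of TOE3 and VRN1 in ExTQ019 centre at -1.11 and -1.03, below 0 together with the gene.

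The other genes of the flowering pathway were read from the same limma fit in 8 lists of 83 genes, of which 80 were tested. AGL14 and GA3OX2 were below background on every array, and SPL13B had no probe. ExTQ016 had 1 of the 80 called (1.25%, against 1.39% of all genes) and ExTQ019 had 8 (10%, against 10.7%), so the lists were called about as often as genes in general. The other 6 strains had 0 called.

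Of the 8 AP2-type and RAV repressors, which hold FT down, 2 were called higher and 1 lower in ExTQ019, a strain with 10.7% of all genes called. The list's median difference was -0.49, with 5 of 8 below 0, beside -0.05 for all genes. SNZ stood at 0.38 in ExTQ019, against -3.63 to -1.33 in the others, a difference of 2.85 ± 0.72 (SE, adjusted p = 0.0352). SMZ stood at -2.45, against -5.08 to -4.05, a difference of 1.95 ± 0.34 (adjusted p = 0.00992). Their relative TOE3 ran the other way, at -4.45 against -2.69 to -2.18 (-2.02 ± 0.21, adjusted p = 0.00207). FT in ExTQ019 was 0.61 ± 1.92 (SE) from its mean in the others, without a call. SNZ kept its call in 9 of 16 settings and in 3 of the 7 that left out a strain; SMZ kept it in 13 and TOE3 in all 16.

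SPL13A (-1.63 ± 0.28) and SPL5 (-1.34 ± 0.20) fell in ExTQ019 as SPL3 did, with adjusted p of 0.00938 and 0.00617, 2 of the 8 tested SPL genes outside the 10, where 6.3% of all genes were called lower. SPL13A has a near-identical copy, SPL13B, that its probe may also read. MAF2, MAF3 (both relatives of FLC) and VRN1, which keeps FLC silent after cold, were lower by similar amounts: -1.15 ± 0.19, -1.15 ± 0.17 and -1.15 ± 0.19, with adjusted p of 0.00894, 0.00553 and 0.00857, 3 of 21 genes in the list, against the same 6.3% of all genes. MAF2 and MAF3 lie side by side in locus order. In contrast to SPL3, most of these sat among genes that were also lower in ExTQ019. The neighbours' median was -1.03 around VRN1 (18 of 20 below 0), -1.01 around SPL13A (20 of 20), -0.86 around MAF2 and MAF3 (16 of 20) and -1.11 around TOE3 (19 of 20). Around SPL5 it was -0.60 (16 of 20). For the raised genes it was 0.26 around SNZ and -0.12 around SMZ.

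In ExTQ016 MFT, an FT relative known from seeds, stood at -2.65, against -8.10 to -5.93 in the others, where 5 of 7 were above background. The difference was 4.18 ± 0.68 (SE) with an adjusted p of 0.0300 by limma, and its size depends on readings near background in the other 2; it was 1.83 with the deposited series values. It was the single call among the 6 partners and relatives of FT and TFL1. MFT's neighbours had a median of -0.01. The call was lost with normexp (1.81), within slide 2, with a trended and robust variance, and without 4 of the 7 other strains in turn.

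**Figure D4:**
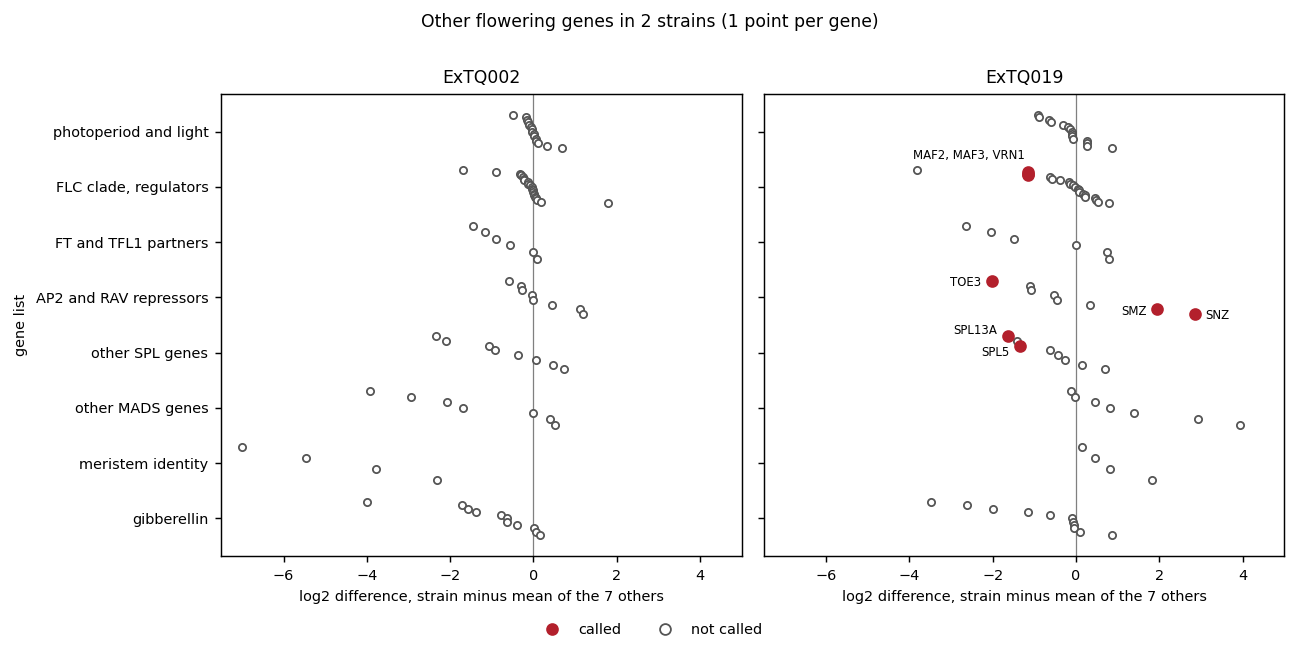
Log2 difference of ExTQ002 and of ExTQ019 from the mean of the 7 others for the 80 tested genes of the 8 flowering lists (1 point per gene; red, called). In ExTQ002 AP1 and CAL of the meristem identity list lie lowest and no gene is called, and in ExTQ019 the 8 called genes lie on both sides of 0.

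Meristem identity genes, which turn a shoot meristem into a flower, had no call, yet all 4 were lowest in ExTQ002. AP1, a target of FT and TFL1, was not well above background in ExTQ002 and stood at -1.14 to 1.13 in the others. Its reading of -7.01 in ExTQ002, 127.8-fold below the others' mean, is not a bound. CAL came out 30.9-fold lower with that array's lowest level of a probe above background in place of its reading. Such a level is not a detection limit. The remaining 2 genes of the list, LFY and FUL, were taken up after their values were seen. LFY was 6.95-fold lower by the same replacement, and FUL differed by -2.32 ± 0.58 (SE). The list's median in ExTQ002 was -4.62, with all 4 below 0, beside -0.04 for all genes. The flower and meristem marker sums were also lowest in ExTQ002, and their part in these values was not tested.

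Also without a call in any strain were photoperiod and light input to CO (15 genes) and the other MADS genes of flowering (7 tested). The gibberellin genes (11 tested) had none either. The DOF factors CDF1 and CDF3, which repress CO, had the largest SDs of the photoperiod list, 0.51 and 0.39. CDF1 was lowest in ExTQ016 at -2.47, against -1.67 to -0.76 in the others (-1.18 ± 0.33 SE, adjusted p = 0.350). AGL71, a relative of SOC1, was not well above background in ExTQ002 and stood at -5.06 to -1.15 in the others. Its relative AGL72 was above background in ExTQ016, ExTQ018 and ExTQ019, at -6.19, -4.01 and -3.44, and not elsewhere. The gibberellin enzymes GA2OX1, which inactivates the hormone, and GA20OX2, which makes its precursors, spread by 2.09 and 1.28; GA2OX1 was not above background in ExTQ002 and ExTQ019.

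Known regulatory links were then read as correlations over the 8 strains, in 18 of 20 listed pairs. Both TSF pairs fell below background. The flower marker sum also differed between strains. It was -0.57 in ExTQ002, 1.53 in ExTQ013, 1.80 in ExTQ015, 3.02 to 3.07 in ExTQ019, ExTQ005 and ExTQ003, 4.17 in ExTQ016 and 4.30 in ExTQ018. Its part in these correlations was not tested, and flower content and regulation cannot be told apart here. FT and AP1 were the single pair past the threshold by Pearson's r in the main setting, where no pair passed by Spearman's rho. They had r = 0.86 (exact permutation p = 0.00203, 0.0366 after Benjamini-Hochberg adjustment over the 18) and rho = 0.90 (exact p = 0.00456, adjusted 0.0821). Without ExTQ002 and ExTQ016, the strains farthest from the median of FT, r was 0.77 (exact p = 0.0819, n = 6). With slide means taken out r was 0.84 (adjusted p = 0.135), and 4 arrays per slide are too few for an r within each. AP1 in ExTQ002 is a reading below background, and without that strain r was 0.78 (adjusted p = 0.291). The r of the pair ran from 0.78 to 0.93 over the 12 alternatives but passed in 3 of them, including 1 of the 8 that left out a strain (without ExTQ003). With the deposited series values FT and AP1 missed by r (adjusted p = 0.0616) and passed by rho (adjusted p = 0.0411).

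**Figure D5:**
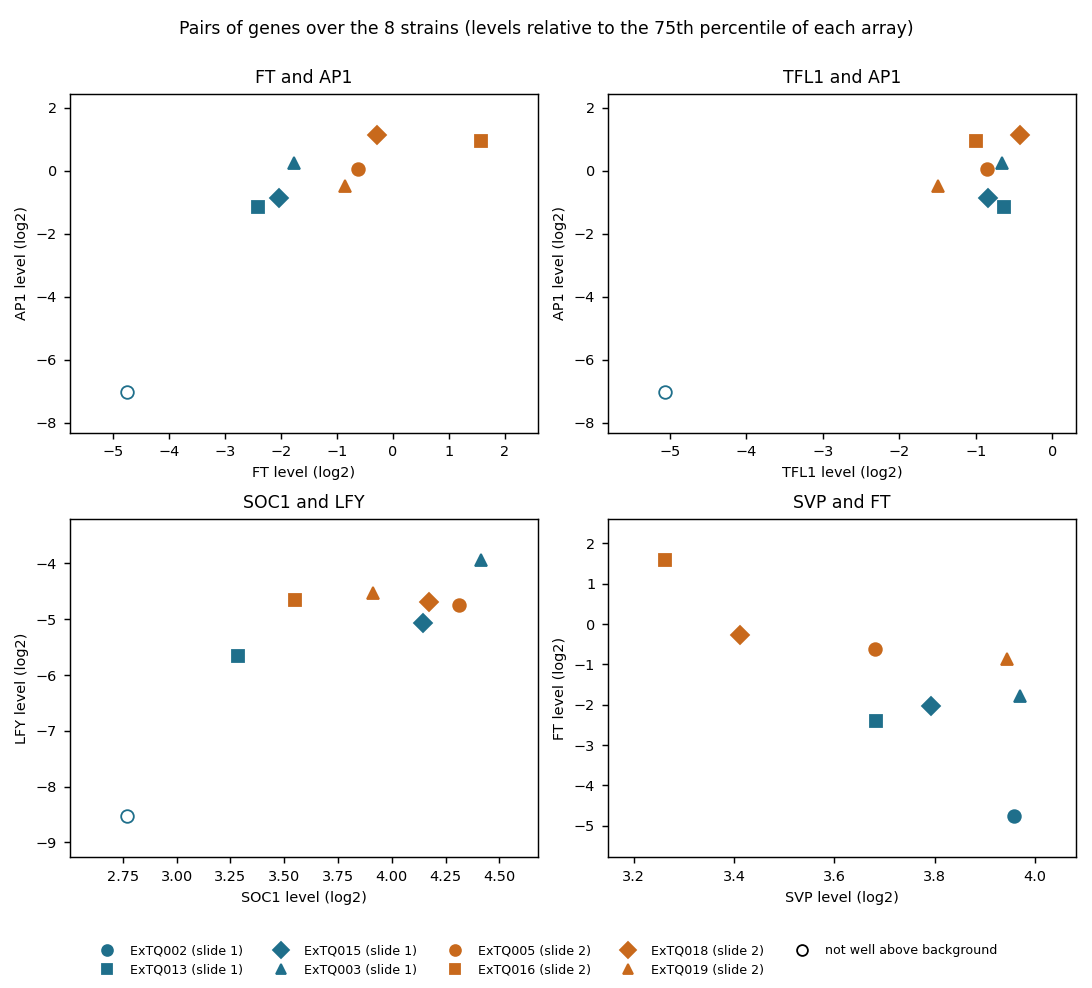
Levels of 4 pairs of genes over the 8 strains, each axis as log2 intensity relative to the 75th percentile of the array (marker shape and colour, strain and slide; open marker, at least 1 gene not well above background). FT and AP1 run together over the strains (r = 0.86), whereas for TFL1 with AP1 the open marker, ExTQ002, stands far from the other 7.

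No other pair passed in the main setting. SOC1 and LFY had r = 0.85 (exact p = 0.00655, adjusted 0.0589; rho = 0.62, exact p = 0.115), which was 0.28 without ExTQ002 and ExTQ013, the strains lowest in SOC1. It was 0.68 without ExTQ002 alone and 0.88 without ExTQ013 alone, and it passed with quantile normalization (0.88, adjusted p = 0.0237). TFL1 and AP1 had r = 0.95 (exact p = 0.0385, adjusted 0.173) and rho = 0.40 (exact p = 0.327), and r was 0.10 without ExTQ002 and ExTQ019. SVP and FT ran in opposite directions, with r = -0.74 (exact p = 0.0313, adjusted 0.173) and rho = -0.71 (exact p = 0.0576), and r was -0.32 without ExTQ016 and ExTQ018. SOC1 and SPL4 had r = 0.68 (exact p = 0.0620, adjusted 0.223) and rho = 0.86 (exact p = 0.0107, adjusted 0.0964). Without ExTQ002 and ExTQ013 their r was 0.94 (exact p = 0.00556, n = 6), and it passed with the deposited series values (0.95, adjusted p = 0.00223; rho adjusted p = 0.00714), with normexp (0.94, adjusted p = 0.0156) and without ExTQ002 (0.97, adjusted p = 0.0143).

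CO and its target FT had r = 0.01 (exact p = 0.977) and rho = 0.05 (exact p = 0.935), and r ran from -0.57 to 0.40 over the alternatives. FLC had r = 0.26 with FT (exact p = 0.506; rho = 0.55, exact p = 0.171) and 0.16 with SOC1 (exact p = 0.716; rho = 0.43, exact p = 0.299), with readings below background in 2 strains. CO and SOC1 had r = 0.62 (exact p = 0.0971; rho = 0.71, exact p = 0.0576). FT and SOC1 had r = 0.49 (exact p = 0.225; rho = 0.43, exact p = 0.299), and FT and TFL1 r = 0.69 (exact p = 0.119; rho = 0.14, exact p = 0.752), which was -0.12 without ExTQ002 and ExTQ016. TFL1 and LFY had r = 0.91 (exact p = 0.0787) and rho = 0.10 (exact p = 0.840), and r was -0.01 without ExTQ002 and ExTQ019. The remaining 6 pairs had r between -0.24 and 0.38 and rho between -0.45 and 0.71. Among them, SOC1 and SPL3 had rho = 0.71 (exact p = 0.0576), and SPL3 and AP1 had rho = 0.62 (exact p = 0.115). Without ExTQ019 the r of both pairs was 0.88, and neither passed.

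The genes whose pattern over the 8 strains was most like each member were taken from 5305 genes above background on all arrays with an SD of at least 0.5. These r describe 8 arrays, which share slides and scaling, and are not tested. FT was nearest to RCI3, CSLG1 and SERAT3;2 (r = 0.97 each), and 13 genes reached 0.95. SOC1 was nearest to AT3G62510 and AT3G25670 (both 0.98) and AT4G33666 (0.97), with 9 genes at 0.95. TFL1 was nearest to TBL36 and AT2G47880 (both 0.98) and KP1 (0.97), with 18 genes. SVP was nearest to DREB1A (0.97), CBF2 and CBF1 (both 0.96), the cold-response factors that lie in tandem as near copies, and to no other gene at 0.95.

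SPL3 had by far the most followers, with 163 genes at 0.95 and above, led by PORA (r = 0.996), ACHT5 and AT5G51670 (both 0.99); all 3 were lowest in ExTQ019, as SPL3 was, and 10.7% of all genes were called in that strain. No gene reached 0.95 for the remaining 4. AGL24 was nearest to CGA1 (0.93), AT2G41190 (0.93) and AT5G50760 (0.92), and FLC to AT1G68935 (0.94), AT2G36145 and AT5G66590 (both 0.93). CO was nearest to AT5G10580 (0.93), AT1G27670 and MC7 (both 0.91), and SPL4 to AT1G18810 (0.86), AT2G25780 and IAA14 (both 0.79).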

How the data were processed

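Per the file headers, each array's intensity came from Agilent Feature Extraction 11.0.1.1, with background subtracted and arrays not scaled to each other by the authors. The authors' deposited series table holds log2 values, as its range shows, made by an unstated step; the submitters' processing notes also name limma. RNA was labelled per the labels' protocols, although the molecule field names genomic DNA. Strain names follow the titles; the descriptions carry other numbers.

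Spots marked as outliers were left out, spots of a probe averaged (37478 probes, 34 dropped), and log2 processed intensity scaled to each array's 75th percentile. For loci with several probes the brightest stood for the gene. Genes above background on 1 array or more were tested with limma 3.58.1 in R 4.3.3, each strain against the 7 others, with Benjamini-Hochberg adjustment within a strain. The fit assumes that the lone strain varies like the others. Where a gene was below background in a strain, folds used its reading or the array's lowest level of a probe above background, whichever was higher. That level is not a detection limit of the gene's probe, so such folds are not strict bounds. The slide comparison was added after the data were seen. Normexp used spot and background medians with an offset of 50. Correlations used exact permutations. Tests were tried on simulated data.

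The 10 genes and all lists were chosen with earlier results of these data known. From the lists, every called gene is named, or else the 2 with the largest SD. Loci were matched to RefSeq symbols for 25427 of 25643. No source used here states the build of the gene models, so no coordinates or sequences are printed.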

Additional observations from a re-analysis of the deposited data

Results flagged for a closer look

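The highest and the lowest of the 8 strains were compared with the nearest other strain in 26 genes, the 9 tested of the 10 and 17 named from the lists. In 11 the gap exceeded Dixon's 95% critical share of the range. Chance gives such a gap in about 1 of 20 groups. That rate does not apply to the 17, named for a call in some strain or for their SD. Nor does it apply to the 9, as the 10 genes were listed with earlier results of these data known. Among the 9 the critical share was exceeded by TFL1, at -5.07 in ExTQ002, with -1.50 in ExTQ019 as the nearest. Its gap was 0.769 of the range. SPL3, FT and FLC did not exceed the critical share.

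In ExTQ002 the lowest readings of the floral identity genes AP1 (-7.01) and CAL (-8.07) also stood apart, and neither was well above background. In ExTQ016 MFT was highest, at -2.65, with a gap of 0.602.

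The other 7 lay in ExTQ019. SMZ was highest there, at -2.45. TOE3 (-4.45), SPL5 (-2.50), SPL13A (-1.52), MAF3 (-2.36), VRN1 (-0.50) and MAF2 (0.35) were lowest there.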

How the results depend on the processing

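The 2 calls among the 10 genes were 1 with the deposited series values (TFL1 lost), 1 with adjustment over all strains together (SPL3 lost) and 1 to 3 when a strain was left out; the value 3 came without ExTQ013, when FLC in ExTQ019 passed, and leaving out ExTQ002 or ExTQ019 removes the strain a call was made in. The 9 calls in the flowering lists were 17 with normexp and 3 to 11 when a strain was left out, the lowest without ExTQ019. The 1 pair past the threshold became 2 with normexp, 2 with quantile normalization, 0 with slide as a block and 0 to 1 when a strain was left out. The pair was not always FT with AP1: with the deposited series values and without ExTQ002 it was SOC1 with SPL4. The median SD of the genes, 0.574, was 0.397 with the series values. No called difference between a strain and the others reversed its direction. The r of 9 of the 18 pairs changed sign under at least 1 alternative: without ExTQ002 it was -0.23 for FT and TFL1, -0.12 for FT and SOC1 and -0.16 for TFL1 and LFY, without ExTQ016 it was -0.10 for FLC and FT, and for CO and FT it was -0.51 with the series values and -0.55 with quantile normalization. The causes were not tested, apart from the strain left out in each case. No paired analysis was possible because all strains form 1 group. Near-background signal limits FLC, CO and TSF most.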
